A study of Mus musculus with 15 samples.

Results

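The transcripts of 8 enzymes of cholesterol synthesis, Hmgcs1, Idi1, Fdps, Fdft1, Sqle, Lss, Cyp51 and Dhcr7, were followed in bulk RNA sequencing of mouse testis. They were taken from the deposited table by their Entrez Gene IDs, so 8 of its 23510 gene IDs are described, and all 8 passed the filter on low values. The table holds 15 libraries in 5 groups of 3, all from ICR mice, an outbred stock. M1, M3 and M5 are testes injected with a mix of lentiviruses carrying 3 short hairpin RNAs against the muscarinic acetylcholine receptor of that name. MNC is testis injected with the same vector carrying the control hairpin shNC, and Con is the group labelled as control, for which the study's methods describe no injection. Injections were made at 5 weeks of age and testes were collected 10 days later, while the age of the Con animals is not given in the sources used here. The hairpins reached whichever cells took up the virus, whole testis was sequenced, and the same control hairpin group serves all 3 knockdowns. The description of 1 M5 library names the column of another, and columns were assigned by sample title. The labels do not say that the 3 libraries of a group came from separate animals, so the p-values measure the spread between these libraries, which may be technical.

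Cholesterol is built from acetyl units through mevalonate, isoprene units and squalene, which is closed into the first sterol, lanosterol, and then trimmed to cholesterol. The genes of this route are switched on together by the transcription factor SREBP2 when sterols in the endoplasmic reticulum are low. In testis, Leydig cells use cholesterol to make testosterone, and germ cells express several of these enzymes as well, making intermediates such as the meiosis-activating sterols.

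Values are FPKM, fragments scaled to gene length and to the mapped fragments of the library, and the number of reads behind them is unknown. The summed FPKM of a library lay between 470243 and 513817. The tissue label was checked against marker genes. All 7 Leydig cell, all 8 Sertoli cell and all 8 elongating spermatid markers were above 0 in every library, although the protocol given for RNA extraction mentions sperm. All 6 adipocyte and all 6 macrophage markers were above 0 in every library too, so presence alone is a weak check. The lowest sums were 659.5 FPKM for Leydig cell, 499 for Sertoli cell and 11387 for elongating spermatid markers. The highest adipocyte sum was 47.9. The targeted receptor genes were near the floor of the table. Chrm5 was at 0.22 to 0.37 FPKM in M5 and 0.23 to 0.43 in MNC (p = 0.5 in a two-sided exact permutation test). For Chrm1 the M1 libraries had 0.09 to 0.14 and MNC 0.1 to 0.11 (exact permutation p = 0.9). For Chrm3 the M3 libraries had 0.04 to 0.11 and MNC 0.01 to 0.05 (exact permutation p = 0.3). The smallest p that 3 against 3 libraries allow is 0.1, and these levels do not check the labels. M5 replicate 3 had the highest Leydig cell (3168 FPKM), Sertoli cell (779), macrophage (199) and red blood cell (491) marker sums of all libraries. Its median FPKM of the genes tested was the highest as well, at 9.92, beside 9.62 in Con replicate 2 and 8.03 in the lowest library. Differences that moved by more than 1.5 times without M5 replicate 3 are therefore given without it too where they are described.

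Upstream sequence was read from RefSeq (GRCm38.p6), which held entries for 5 of the 8 genes, Hmgcs1, Idi1, Lss, Cyp51 and Dhcr7. The 250 bases before each of their 7 annotated starts were searched on both strands for the sterol regulatory element TCACNCCAC, the CCAAT box CCAAT, the GC box GGGCGG and the core of the cAMP response element TGACG. These occurred in 1.05%, 33.9%, 32.7% and 17.8% of all 32851 windows of that length, and in 1, 5, 6 and 2 of the 7 windows of these genes. The sterol element was found only at Hmgcs1, where it began 137 bases before the start. Sequence that lies before the first base annotated to the gene is shown for Hmgcs1, the holder of that element, and for Lss and Dhcr7 (the first of its 3 starts), the pair with the highest correlation of the 8 over the libraries. Each runs 5' to 3' on the strand of the gene, which is the plus strand for all of them, at chr13:119690101-119690350, chr10:76531355-76531564 and chr7:143822917-143823144, and capitals mark the matches to these motifs.
Hmgcs1: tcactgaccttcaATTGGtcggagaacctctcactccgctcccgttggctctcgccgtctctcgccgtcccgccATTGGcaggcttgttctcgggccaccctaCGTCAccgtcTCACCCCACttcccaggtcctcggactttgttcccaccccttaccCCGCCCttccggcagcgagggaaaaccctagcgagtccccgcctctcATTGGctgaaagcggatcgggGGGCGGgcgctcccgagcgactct
Lss: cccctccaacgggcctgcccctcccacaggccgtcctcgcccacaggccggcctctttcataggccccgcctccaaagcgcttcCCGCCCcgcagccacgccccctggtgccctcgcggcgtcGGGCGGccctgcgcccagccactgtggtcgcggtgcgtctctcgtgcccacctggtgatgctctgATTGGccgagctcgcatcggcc
Dhcr7: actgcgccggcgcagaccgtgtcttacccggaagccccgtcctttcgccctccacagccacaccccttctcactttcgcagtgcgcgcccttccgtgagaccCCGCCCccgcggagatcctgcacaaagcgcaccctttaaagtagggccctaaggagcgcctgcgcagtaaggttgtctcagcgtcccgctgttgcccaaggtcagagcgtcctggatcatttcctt
The Hmgcs1 window holds the sterol element between a match to the cAMP core and a GC box, with 3 CCAAT boxes, 1 of them 45 bases before the start. The printed Lss stretch has 2 GC boxes and a CCAAT box, and the printed Dhcr7 stretch a single GC box. A match is only a stretch of letters, and whether a factor bound there was not measured.

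The levels of the 8 transcripts spanned a wide range on the FPKM scale, which is scaled by gene length. Fdft1 was highest, with a mean over the 15 libraries of 119 FPKM, followed by Fdps at 61.9, Sqle at 48.9, Hmgcs1 at 37.8, Cyp51 at 29.8, Idi1 at 21.3, Dhcr7 at 10.4 and Lss at 4.02. Fdft1, which makes squalene, thus stood above 94.2% of the 14514 genes tested, and Lss, which acts only 2 steps later, above 30.4%. Idi1 and Dhcr7 varied most, with coefficients of variation over the libraries of 35.9% and 29.8%. Lss and Hmgcs1 were next at 18.8% and 15.9%, and the other 4 lay between 7.01% and 8.37%. In a bulk library, fewer cells of a type and less RNA per cell cannot be told apart, which holds for every level below.

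**Figure D1:**
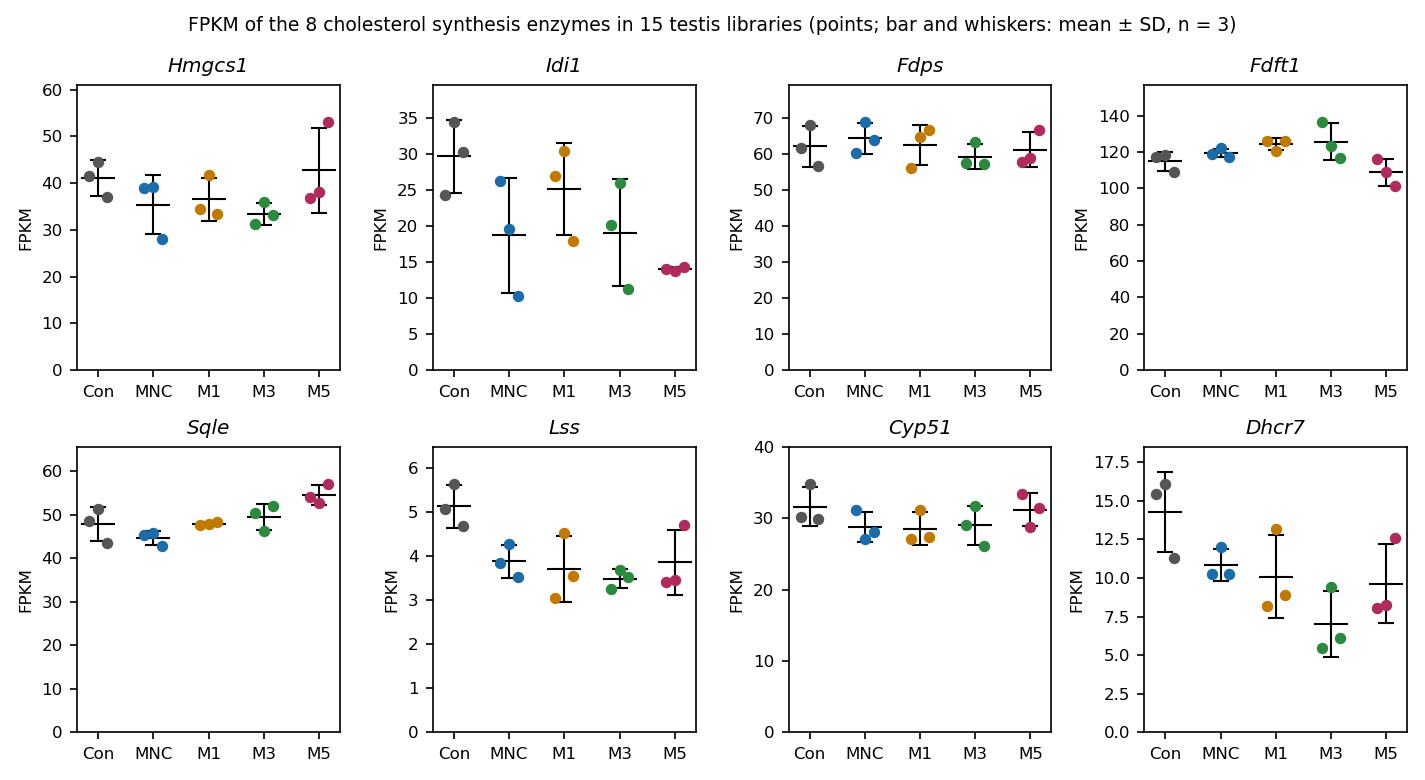
FPKM (y axis, from 0) of the 8 enzymes in the 3 libraries of each group (x axis), 1 panel per gene; points are libraries in replicate order, the bar and whiskers the mean and SD (n = 3). Idi1 has 3 M5 libraries between 13.8 and 14.3, below the 3 Con libraries, and Sqle has 3 M5 libraries above the libraries of the 4 other groups.

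Hmgcs1 (Entrez 208715, chr13:119690351-119708260) condenses acetyl-CoA units into HMG-CoA ahead of the mevalonate step. It was at 41.6, 44.6 and 37.0 FPKM in Con and at 38.9, 39.2 and 28.1 in MNC. M1 had 34.4, 41.8 and 33.5, and M3 had 31.3, 35.9 and 33.1. In M5 it was at 36.9, 38.2 and 53.2, so M5 replicate 3 was the highest of the 15 libraries and the other M5 libraries lay within the range of MNC. In the order of group means, M5, Con, M1, MNC and M3, every pair of neighbours overlapped.

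Idi1 (Entrez 319554, chr13:8885606-8892396) interconverts the isoprene units isopentenyl and dimethylallyl diphosphate. Con had 24.3, 34.4 and 30.2 FPKM, and M1 26.9, 30.4 and 18.0. Levels spread widely within the other controls and M3, at 26.2, 19.6 and 10.3 in MNC and 20.1, 25.9 and 11.2 in M3. The 3 M5 libraries were close together at 14.0, 13.8 and 14.3. All M5 libraries were thus below all Con and M1 libraries, but inside the ranges of MNC and M3. The coefficient of variation was 42.9% in MNC and 2.07% in M5.

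Fdps (Entrez 110196, chr3:89093588-89101967) joins isoprene units into farnesyl diphosphate, from which squalene, dolichol and the tails of prenylated proteins branch. Its group means lay between 59.3 ± 3.48 FPKM in M3 and 64.3 ± 4.31 in MNC (SD, n = 3 each), with single libraries from 56.0 in M1 to 68.9 in MNC. All groups overlapped.

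Fdft1 (Entrez 14137, chr14:63145150-63181687) couples farnesyl diphosphate units to squalene, the first step that commits the route to sterols. It was at 117, 118 and 109 FPKM in Con and at 119, 122 and 117 in MNC. M1 had 126, 121 and 126, M3 had 137, 123 and 117, and M5 had 116, 109 and 101. The M5 libraries were below all libraries of MNC, M1 and M3 and overlapped those of Con. M3 replicate 1 was the highest of the 15 and M5 replicate 3 the lowest.

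Sqle (Entrez 20775, chr15:59315092-59331193) epoxidizes squalene and is a rate-limiting step of the sterol branch. Con had 48.5, 51.3 and 43.6 FPKM and MNC 45.4, 45.8 and 42.8. M1 was at 47.7, 47.8 and 48.3 and M3 at 50.4, 46.3 and 52.0. M5 was at 54.1, 52.6 and 57.1, and its lowest library was above the highest of the other 12. In the order M5, M3, M1, Con, MNC this was the only pair of neighbours that did not overlap.

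Lss (Entrez 16987, chr10:76531565-76557139) closes oxidosqualene into lanosterol. It was at 5.08, 5.64 and 4.68 FPKM in Con, and at 3.85, 4.28 and 3.52 in MNC. M1 had 3.06, 4.53 and 3.56, M3 had 3.26, 3.69 and 3.53, and M5 had 3.42, 3.45 and 4.72. Con lay above MNC, M1 and M3 in every library, and M5 replicate 3 reached into the Con range.

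Cyp51 (Entrez 13121, chr5:4080674-4104697) demethylates lanosterol and so makes the first of the meiosis-activating sterols. Its group means lay between 28.5 ± 2.32 FPKM in M1 and 31.6 ± 2.75 in Con (SD, n = 3 each), with single libraries from 26.2 in M3 to 34.8 in Con, and all groups overlapped. Dhcr7 (Entrez 13360, chr7:143823167-143848410) is the reductase that yields cholesterol at the end of the route. It was at 15.4, 16.1 and 11.3 FPKM in Con, 10.2, 12.02 and 10.2 in MNC and 8.18, 13.1 and 8.92 in M1. M3 had 5.47, 9.42 and 6.13 and M5 had 8.05, 8.28 and 12.6, so M3 held the lowest library, and all M3 libraries were below all MNC and all Con libraries.

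Some of these genes share sequence with annotated neighbours, and the counting was not stated to use strand. In the GENCODE annotation of GRCm38, Lss overlaps the antisense gene 4930483K19Rik over 11268 bases, Hmgcs1 the antisense gene Gm48342 over 6190, Idi1 the opposite-strand gene Gm48574 over 323, and Fdps the same-strand gene Gm43738 over 7512, none of which has a row of its own here. Fdft1 overlaps the end of Ctsb over 774 bases and Cyp51 that of Akap9 over 166, both on opposite strands, with means of 48.5 FPKM for Ctsb and 6.94 for Akap9. Reads from such pairs cannot be told apart, so the levels of these genes carry that uncertainty. Sqle and Dhcr7 have no overlapping gene.

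Knockdown of M5 was compared with MNC, the comparison between a hairpin against the receptor and the control hairpin. Sqle rose, and it was the only enzyme of the 8 that passed, where 5.65% of all genes tested did. It was at 54.6 ± 2.26 FPKM in M5 and 44.7 ± 1.61 in MNC (SD, n = 3 each), a ratio of means of 1.22. The difference on the log2(FPKM + 1) scale was 0.28 (SE 0.059, limma, adjusted p = 0.0464). This call was close to the threshold of 0.05. It was lost without any of the 6 libraries, with an adjusted p of 0.0583 when M5 replicate 3 was left out and up to 0.149 when MNC replicate 3 was, while the difference stayed between 0.25 and 0.31. Centring each library on its median gave 0.25 with an adjusted p of 0.13.

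Around Sqle, the steps before and after it did not move in 1 direction. Fdft1, just upstream, was lower in all M5 than in all MNC libraries, at 0.911 of the MNC mean, a log2 difference of -0.14 (SE 0.064, adjusted p = 0.246). Groups did not overlap for 2 of the 8 enzymes, Sqle and Fdft1, and for 32.1% of all genes. Hmgcs1 differed by 0.26 (adjusted p = 0.424), of which 0.098 was left without M5 replicate 3. Cyp51 differed by 0.11 (adjusted p = 0.456), Lss by -0.014 (0.965), Fdps by -0.073 (0.618) and Dhcr7 by -0.18 (0.574). Without M5 replicate 3, Dhcr7 differed by -0.36 (adjusted p = 0.0794), Lss by -0.14 (0.424), Fdps by -0.14 (0.263) and Fdft1 by -0.085 (0.321). Idi1 differed by -0.30 (adjusted p = 0.586), with a wide 95% interval from -1.01 to 0.42, and single MNC libraries decided its size, at -0.018 without MNC replicate 1 and -0.65 (adjusted p = 0.112) without MNC replicate 3. The median of the 8 differences was -0.043, beside 0.025 over all genes tested.

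No gene of the other pathway lists passed in this comparison, among 13 other synthesis enzymes tested, 7 of the isoprenoid and dolichol branch, 14 regulators of SREBP and 14 of uptake, transport and storage. The lowest p of each list belonged to Ebp, the sterol isomerase (0.35, adjusted p = 0.303), Nus1, a subunit of the dolichol-making prenyltransferase (0.33, 0.0752), Srebf2, the gene of SREBP2 (-0.37, 0.19), and Lrp8, a lipoprotein receptor (-0.25, 0.145). Libraries also differed in marker levels of other cells. Red blood cell markers summed to 148 to 491 FPKM in M5 and 21.8 to 35.3 in MNC, with 3 of 5 called higher, and spermatocyte markers to 2582 to 2933 against 3287 to 3449, although the 2 of these 8 that were called were higher in M5. Of 7 round and 8 elongating spermatid markers, 1 of each was called lower in M5, where 5.65% of all genes passed. In each of these lists 4 markers had a positive difference. Elongating spermatid markers summed to 23261 to 32392 FPKM in M5 and 23596 to 29901 in MNC. None of the 7 Leydig cell markers passed, with sums of 1521 to 3168 in M5 and 1585 to 2024 in MNC. The part of these in the difference of Sqle was not tested.

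Knockdown of M1 against MNC called no gene at all by limma, 0% of those tested, with 862 (5.94%) at an unadjusted p under 0.05, and none of the 8 enzymes was among the latter. Sqle was above MNC in all M1 libraries, by 0.10 (SE 0.042, adjusted p = 0.819), the only enzyme without overlap, where 12% of all genes had none. Idi1 differed by 0.47 with an interval from -0.39 to 1.32 (adjusted p = 0.857), and by 0.11 without MNC replicate 3 and 0.74 without MNC replicate 1. The 6 others lay between -0.12 for Dhcr7 and 0.057 for Fdft1, and the median of the 8 was 0.020, beside -0.018 over all genes. The lowest p in each of the other lists was that of Pmvk (-0.16, adjusted p = 0.825), Fnta (0.12, 0.819), Scap (-0.18, 0.819) and Apoe (-0.35, 0.819).

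Knockdown of M3 against MNC called a single gene, 0.00689% of those tested, and it was not 1 of the 8 enzymes. Dhcr7 had the widest difference of the 8 and the only unadjusted p under 0.05, which 9.43% of all genes had. The M3 mean was 7.01 ± 2.12 FPKM and the MNC mean 10.8 ± 1.03 (SD, n = 3 each), a ratio of 0.647 and a log2 difference of -0.59 with an interval from -1.03 to -0.15 (SE 0.18, adjusted p = 0.518). Sqle was above MNC in all M3 libraries, by 0.15 (adjusted p = 0.522). Groups thus did not overlap for 2 of the 8, where 17.1% of all genes had no overlap. The 6 other enzymes lay between -0.12 for Lss and 0.068 for Fdft1. The lowest p of the synthesis list belonged to Pmvk (-0.23), and that of the isoprenoid branch to the farnesyltransferase subunit Fnta (0.23), each with an adjusted p of 0.518. Leydig cell markers summed to 659.5, 1519 and 1768 FPKM in the M3 libraries and 1585 to 2024 in MNC. Their part in the difference of Dhcr7 was not tested.

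**Figure D2:**
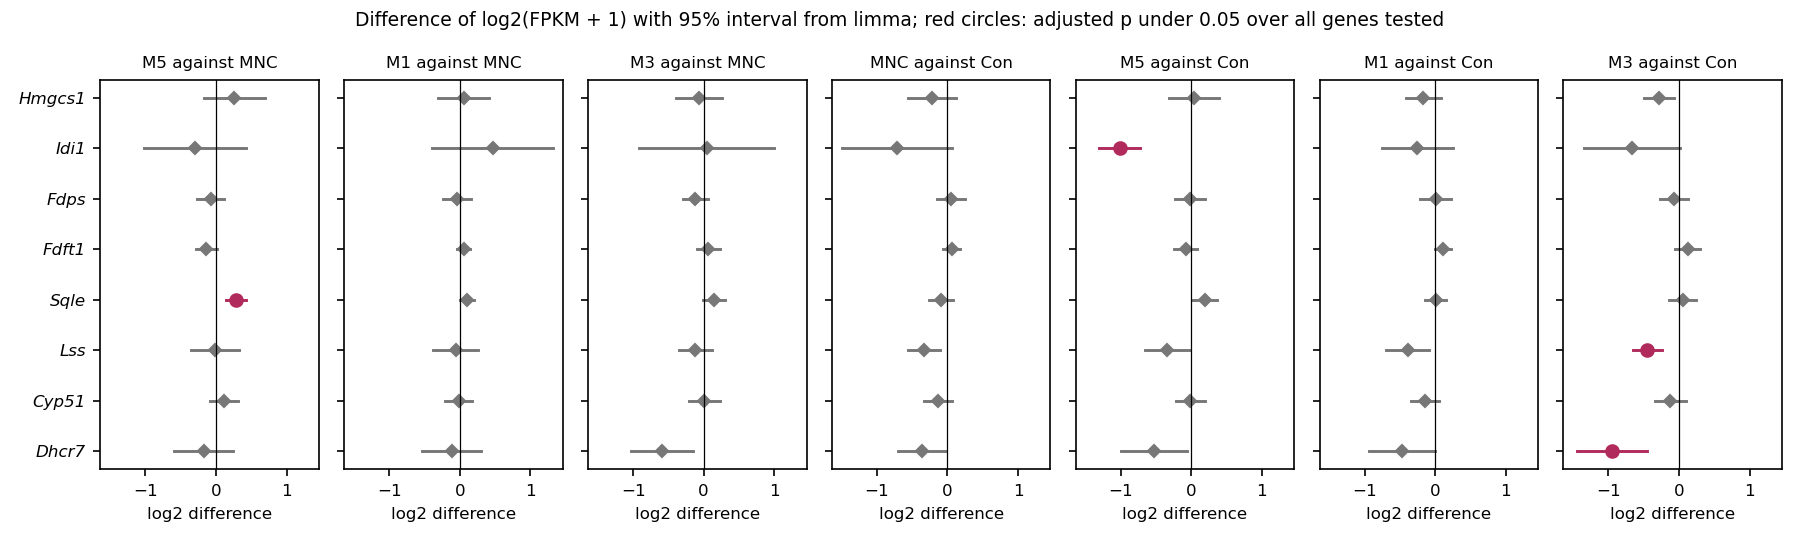
Difference of log2(FPKM + 1) (x axis) of each enzyme (y axis, in the order of the route) in 7 comparisons, with 95% intervals from limma; circles in red passed an adjusted p of 0.05 over all genes tested, grey diamonds did not. Against MNC only Sqle passed, in M5, and against Con the calls were Idi1 in M5 and Lss and Dhcr7 in M3.

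MNC, the control hairpin group, was compared with Con. In this contrast injection and vector come together with any difference in age or cell content. The age of the Con animals is not given, so these cannot be told apart. None of the 8 enzymes passed, where 20.4% of all genes did, and 2 had an unadjusted p under 0.05, where 40.1% of all genes did. Lss was at 3.88 ± 0.381 FPKM in MNC and 5.13 ± 0.482 in Con (SD, n = 3 each), with no overlap, a ratio of 0.756 and a log2 difference of -0.33 (SE 0.095, adjusted p = 0.0553). Dhcr7 was at 10.8 and 14.3 FPKM, a difference of -0.36 (SE 0.14, adjusted p = 0.11), and it passed without Con replicate 3, at -0.50 (adjusted p = 0.0412). Idi1 was at 18.7 and 29.6 FPKM, a difference of -0.72 with an interval from -1.50 to 0.06 (adjusted p = 0.149), which was -0.36 without MNC replicate 3 and -0.996 without MNC replicate 1. The 5 others lay between -0.22 for Hmgcs1 and 0.057 for Fdft1. The median of the 8 was -0.17, beside -0.095 over all genes, and Lss alone had no overlap, where 46.5% of all genes had none.

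Some other pathway genes passed in this comparison, where 20.4% of all genes did. Of the 13 other synthesis enzymes tested, 1 rose and 3 fell in MNC. Pmvk, the phosphomevalonate kinase, was at 8.64, 8.04 and 8.89 FPKM in MNC and 4.82, 5.59 and 5.97 in Con, a difference of 0.56 (adjusted p = 0.0192). Sc5d, a sterol desaturase near the end, differed by -0.58 (0.0212), and Lbr, a sterol reductase of the nuclear membrane, by -0.38 (0.021). Of the isoprenoid branch 2 of 7 fell, Nus1 (-0.25) and Fnta (-0.34). Among 14 regulators 1 fell, and among 14 genes of uptake and storage the sterol carrier Stard4 fell (-0.35) and the hormone-sensitive lipase Lipe rose (0.67). None of these calls was kept without Con replicate 1 or without Con replicate 2, when 8 and 195 genes passed over the whole table in place of 2967.

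Marker levels of several cell types differed as well between Con and the injected groups. Elongating spermatid markers summed to 11387 to 22053 FPKM in Con and 23261 to 32392 in the 4 other groups. All 8 of them were higher in MNC than in Con, and 3 passed, where 20.4% of all genes did. Of 8 spermatocyte markers 4 passed as lower in MNC. Epididymis markers summed to 17.3 to 36.2 FPKM in Con, 1.53 to 2.4 in MNC, 2.05 to 3.05 in M1, 2.67 to 3.14 in M5 and 4.91 to 24.3 in M3, and of the 2 that passed the filter 1 was called lower in each of MNC, M1 and M5. Leydig cell markers summed to 1540 to 1994 in Con and none of 7 passed in MNC. The part of these in the differences of Lss, Dhcr7 and Idi1 was not tested.

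Each knockdown was also set against Con. These comparisons share the 3 Con libraries with each other and with the one above, so their values are given side by side and not as separate support. In M5 against Con, Idi1 fell, the only one of the 8, where 21.7% of all genes passed. It was at 14.0 ± 0.291 FPKM in M5 and 29.6 ± 5.09 in Con (SD, n = 3 each), a ratio of 0.474 and a log2 difference of -1.01 (SE 0.12, adjusted p = 0.00549). This call was kept without each of the 6 libraries and in the 9 other settings run, with differences from -1.14 to -0.90. Its adjusted p by limma rose to 0.0306 without M5 replicate 2, 0.0322 with all 5 groups in 1 fit and 0.0359 with the replicate block. The SE was 0.32 with all 5 groups in 1 fit. The fit of the pair used M5 and Con alone, and the coefficient of variation in M5 was 2.07%. In the same comparison 3 of 5 red blood cell, 3 of 5 macrophage and 3 of 8 elongating spermatid markers rose, with macrophage sums of 75.4 to 199 FPKM in M5 and 45.1 to 64.6 in Con, while 2 of 8 spermatocyte and 1 of 2 epididymis markers fell. Their part in the difference of Idi1 was not tested. In M1 against Con, 34.2% of all genes passed and none of the 8. In M3 against Con, 22.1% passed, and Lss and Dhcr7 fell.

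For Dhcr7 the M3 mean was 7.01 FPKM and the Con mean 14.3, a ratio of 0.491 and a difference of -0.95 (SE 0.21, adjusted p = 0.0319). For Lss the means were 3.49 and 5.13 FPKM, a ratio of 0.681 and a difference of -0.45 (SE 0.088, adjusted p = 0.0283). All genes had a median difference of -0.13 in this comparison, and with libraries centred on their medians Dhcr7 differed by -0.79 (adjusted p = 0.0392) and Lss by -0.29 (0.0422). The calls rested on few libraries. Both were lost without M3 replicate 1, with adjusted p of 0.0797 for Dhcr7 and 0.0756 for Lss, without Con replicate 1 (0.116 and 0.114) and without Con replicate 2 (0.0943 and 0.0853). Dhcr7 was lost without M3 replicate 3 as well (0.0596).

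Idi1, Lss and Dhcr7 had the lowest differences of the 8 against Con in each knockdown, most of which did not pass. Dhcr7 differed by -0.53 in M5 (adjusted p = 0.0994) and -0.47 in M1 (0.1), and Lss by -0.34 in M5 (0.117) and -0.39 in M1 (0.0549). Without M5 replicate 3 both passed in M5, Lss at -0.46 (adjusted p = 0.0157) and Dhcr7 at -0.72 (0.0189). Without M1 replicate 2 both passed in M1, Lss at -0.51 (0.0271) and Dhcr7 at -0.66 (0.0346). Idi1 differed by -0.25 in M1 (adjusted p = 0.366) and -0.67 in M3 (0.121). Sqle was above Con in all M5 libraries, by 0.19 (0.112), and Hmgcs1 below Con in all M3 libraries, at -0.29 (0.0574). Groups did not overlap for 2 of the 8 in M5 against Con, 2 in M1 and 3 in M3, beside 42.2%, 53.6% and 49.3% of all genes.

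Markers of somatic and germ cells were also called against Con, where 34.2% of all genes passed in M1 and 22.1% in M3. Of 7 Leydig cell markers 2 fell in M1 against Con and 2 in M3, in M3 the luteinizing hormone receptor Lhcgr (-1.61, adjusted p = 0.0259) and the steroidogenic enzyme Cyp17a1 (-1.40, 0.0481), both lost without Con replicate 1. In M3 against Con 3 of 8 Sertoli cell, 2 of 5 macrophage and 2 of 6 spermatogonia markers were also called lower. M3 replicate 1 had the lowest Leydig marker sum of the 15 libraries (659.5 FPKM), and M5 replicate 3 the highest (3168). The list was at 1358 to 1581 in M1. Elongating spermatid markers were all 8 higher in M3 than in Con, 5 of them passing. The part of these lists in the calls of Lss and Dhcr7 was not tested.

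The regulators and the other enzymes of the route were counted in the same comparisons. In M3 against Con, 6 of 13 other synthesis enzymes and 6 of 14 regulators fell and none rose, with SREBP2 itself (Srebf2, -0.44, adjusted p = 0.0393), its escort Scap (-0.50, 0.0309) and the sterol-sensing retention factor Insig1 (-0.59, 0.034) among the regulators. All 12 of these calls were lost without Con replicate 1, without Con replicate 2 and without M3 replicate 1, when 0, 1 and 61 genes passed over the whole table in place of 3210 (22.1% of all genes). In M1 against Con, where 34.2% of all genes passed, 3 synthesis enzymes fell and 1 rose, and 7 regulators fell and 2 rose. Without Con replicate 1 these became 1 synthesis enzyme and 0 regulators. In M5 against Con, where 21.7% of all genes passed, 4 synthesis enzymes fell and 1 rose, and of the regulators only Insig2 fell (-0.24, 0.0275). None of these was kept without Con replicate 1, and without M5 replicate 3 the counts were 7 enzymes and 9 regulators lower and 1 of each higher.

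The knockdowns were compared with each other. In M5 against M1, 6.75% of all genes passed and none of the 8 enzymes, while Idi1, Sqle and Fdft1 had an unadjusted p under 0.05 and no overlap, where 25.4% of all genes had such a p and 33.7% no overlap. Idi1 was at 14.0 FPKM in M5 and 25.1 in M1, a log2 difference of -0.76 (SE 0.18, adjusted p = 0.0555). It passed without M1 replicate 3, at -0.98 (adjusted p = 0.0197). Sqle was higher by 0.18 (adjusted p = 0.0754) and Fdft1 lower, at -0.19 (0.111). The 5 others lay between -0.059 for Dhcr7 and 0.21 for Hmgcs1. Without M5 replicate 3, Hmgcs1 differed by 0.045, Dhcr7 by -0.25, Fdps by -0.092 and Lss by -0.077. In M5 against M3, 0.0138% of genes passed and none of the 8. Sqle, at 0.14 (0.39), and Hmgcs1, at 0.33 (0.351), were above M3 in all M5 libraries, and Fdft1, at -0.20 (0.348), was below, so 3 of the 8 had no overlap, beside 22.9% of all genes. Without M5 replicate 3, Hmgcs1 differed by 0.17 (0.46), Dhcr7 by 0.23 in place of 0.41, Fdps by -0.020 in place of 0.043 and Lss by -0.018 in place of 0.10. In M1 against M3 no gene passed by limma (0%, with 672, or 4.63%, at an unadjusted p under 0.05), none of the 8 was without overlap, where 10.5% of all genes were, and the widest difference was that of Dhcr7, 0.47 with an interval from -0.08 to 1.02 (adjusted p = 0.899).

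No gene of the other pathway lists passed between knockdowns. In M5 against M1 the lowest p of the lists belonged to Ebp (0.52, adjusted p = 0.179), Nus1 (0.27, 0.0974), the CCAAT-binding subunit Nfyb (0.30, 0.0905) and Lipe (-0.31, 0.073). In M5 against M3 they were Sc5d (0.36, 0.338), Nus1 (0.22, 0.343), Insig1 (0.39, 0.341) and Stard4 (0.28, 0.338). In M1 against M3 those reported are Nsdhl (0.27), Fnta (-0.11) and Cyp46a1 (-0.21), each with an adjusted p of 0.899.

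The enzymes were then compared with each other over the 15 libraries, on log2(FPKM + 1). Of the 28 pairs, 19 had a positive Pearson r, and r ran from -0.579 to 0.88 with a median of 0.306. A positive r was common in this table. The share of all genes with a positive r ran from 37.5% for Fdft1 to 70.1% for Cyp51. After Benjamini-Hochberg adjustment over the 28 pairs, 2 pairs passed by r. Lss and Dhcr7 had r = 0.88 (permutation p = 3e-05, adjusted p = 0.00084) and Spearman rho = 0.914 (permutation p = 1e-05, the smallest that 100000 permutations can give, adjusted p = 0.00028). Without Con replicates 1 and 2, the libraries farthest from the median of Lss, r was 0.803. It was 0.872 within groups, after subtraction of the group means, and 0.806 without Con.

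Hmgcs1, at the start of the route, and Lss, which closes the ring, had r = 0.727 (permutation p = 0.00167, adjusted p = 0.0234) and rho = 0.775 (permutation p = 0.00121, adjusted p = 0.0113), with r = 0.822 without M5 replicate 3 and MNC replicate 3 and 0.869 within groups. An r of that size was common in this table. Among 14513 genes ranked by r with Hmgcs1, Lss was at rank 1694, and among those ranked with Lss, Hmgcs1 was at rank 1376. The pair is thus not shown to be particular to the enzymes. Hmgcs1 and Dhcr7 had r = 0.665 (adjusted permutation p = 0.063) and rho = 0.807 (adjusted permutation p = 0.0077). Fdft1 ran the other way from Hmgcs1, with r = -0.579 (adjusted permutation p = 0.13), or -0.316 without M5 replicate 3. The 8 transcripts thus did not vary as 1 block. The mean of their z-scores was highest in Con replicate 2 (1.26) and lowest in M3 replicate 3 (-0.81), and each of the 5 groups held libraries on both sides of 0.

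**Figure D3:**
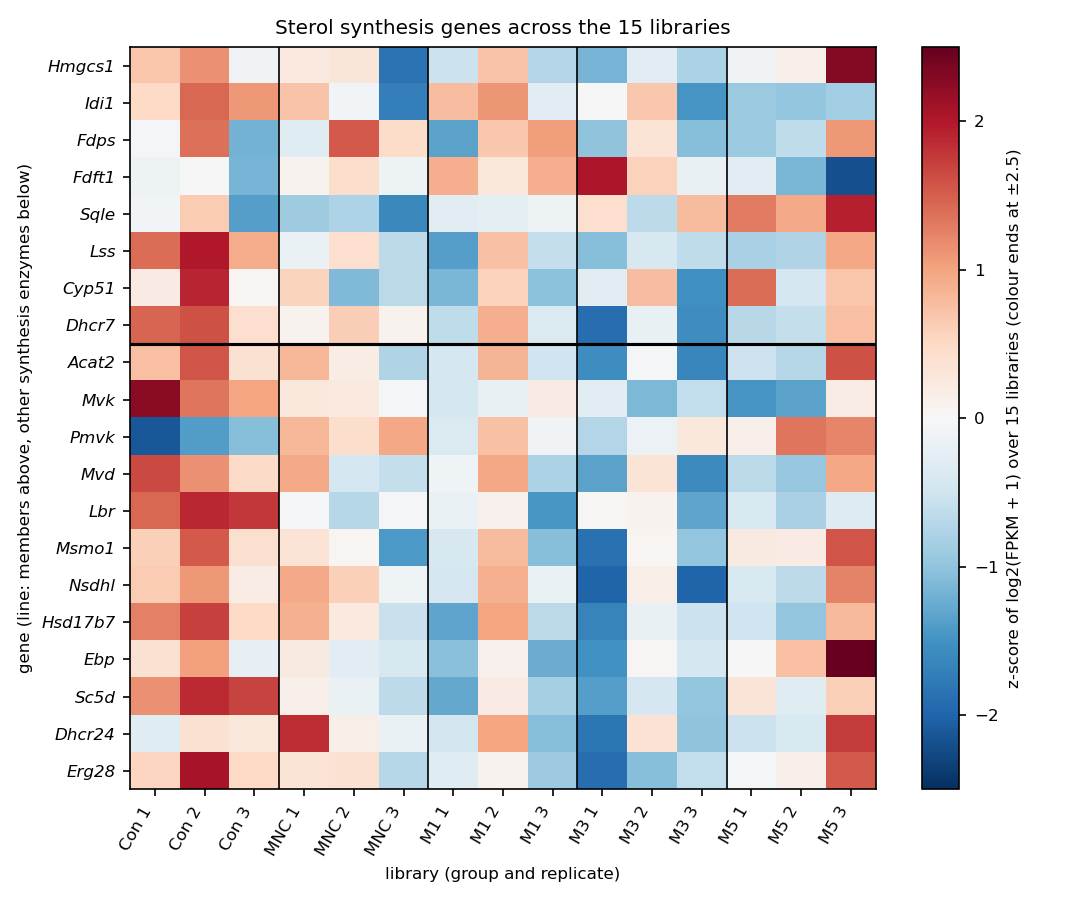
Z-scores of log2(FPKM + 1) over the 15 libraries (colour), for the 8 enzymes and 12 other synthesis enzymes (vertical axis), by library and group (horizontal axis). Dhcr7 and Lss are highest in Con replicates 1 and 2, while Fdft1 and Sqle have different patterns.

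Marker levels of Leydig cells, taken as the mean log2(FPKM + 1) of 7 genes, varied with several of the enzymes. Of 16 relations with Leydig cell and elongating spermatid markers, 7 passed after adjustment. How many of all genes varied as closely with these marker levels was not counted, so the 7 are not shown to be particular to the enzymes. With the Leydig level, Dhcr7 had r = 0.748 (permutation p = 0.00086, adjusted p = 0.00688, rho = 0.711 with permutation p = 0.0042), which was 0.668 without M3 replicate 1 and M5 replicate 3 and 0.674 within groups. Lss had r = 0.687 (permutation p = 0.00289, adjusted p = 0.0116, rho = 0.757 with permutation p = 0.00177), and 0.783 without the same libraries. Hmgcs1 had r = 0.73 (permutation p = 0.00387, adjusted p = 0.0124, rho = 0.711 with permutation p = 0.0042), and 0.626 without them. For Fdft1 r was -0.771 (permutation p = 0.00186, adjusted p = 0.00992, rho = -0.611 with permutation p = 0.01801) and -0.352 without them, so that relation rested on those libraries. Sqle had r = 0.144 (adjusted permutation p = 0.657) and Idi1 0.0741 (0.804). For elongating spermatid markers the Con libraries stood apart, so r is given over the 12 other libraries alone, as -0.453 for Lss, -0.188 for Dhcr7 and -0.673 for Cyp51.

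**Figure D4:**
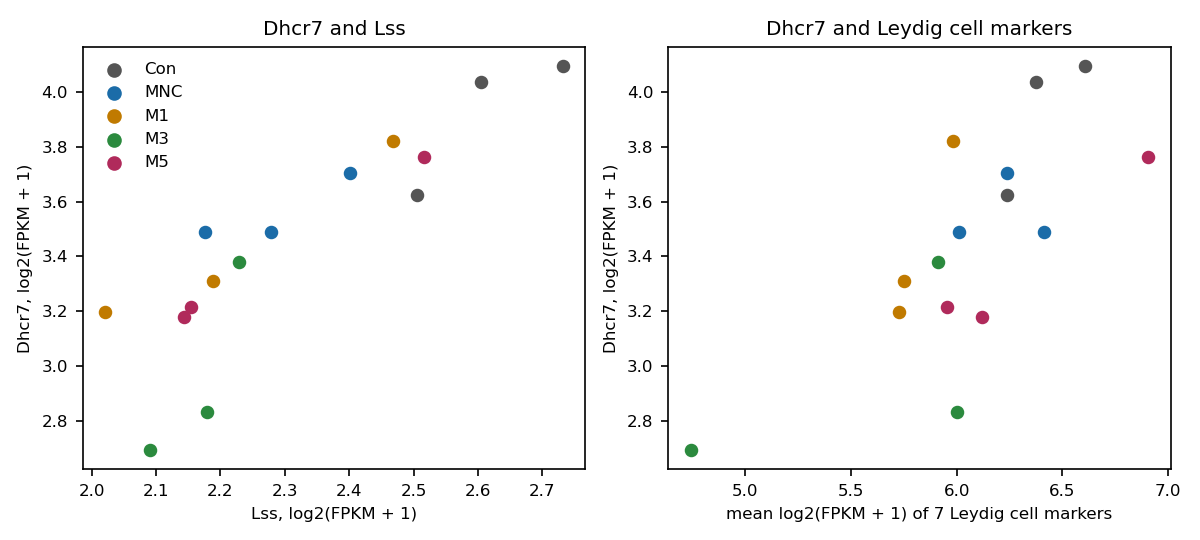
Left, log2(FPKM + 1) of Dhcr7 (y axis) against that of Lss (x axis); right, Dhcr7 against the mean log2(FPKM + 1) of 7 Leydig cell markers; each point is 1 of 15 libraries, coloured by group. Pearson r is 0.88 on the left and 0.748 on the right.

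The genes whose pattern over the 15 libraries was most like the mean z-score of the 8 enzymes were Ano6 (r = 0.906), Utrn (0.904), Smarcc1 (0.89), Cbfb (0.889) and Arpc4 (0.883), none of them of the sterol route. For the single enzymes, a look made after their values were seen, the 55 other pathway genes tested were ranked by likeness among 14513 genes. These 55 include the other enzymes of the 8, so the pair of Lss and Dhcr7 counts again in the top 1% of each. For Dhcr7, 8 of the 55 were in the top 1%, among them Insig1 (r = 0.928), Nsdhl, Acat2, Hsd17b7 and Mvd, and 49 of the 55 (89.1%) had a positive r, where 69.3% of all genes did. Lss had 5 in the top 1%, Hmgcs1 and Fdps 3 each, Idi1 2 and Cyp51 1. Fdft1 and Sqle had 0, and 10 of the 55 (18.2%) had a positive r with Fdft1, where 37.5% of all genes did. Group, cell content and the unknown depth of a library are common to all its genes, so the ranks are a description.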

How the data were processed

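Testis poly(A) RNA was sequenced by the study, and the deposited table gives FPKM per gene and library, calculated by the authors after alignment to mm10 according to the submitters' processing notes. The methods name RPKM for the test and FPKM for a principal component analysis, and the columns are named FPKM. The annotation and whether strand was used are not given in the sources used here. FPKM are not counts, so the study's count test was not run. Values were analysed as log2(FPKM + 1) for the 14514 genes with a mean of 1 FPKM or more over the 15 libraries, with limma 3.58.1 (R 4.3.3, lmFit and eBayes with trend, groups fitted in pairs, two-sided). P-values were adjusted by Benjamini-Hochberg over all of these genes and called under 0.05. Figures, correlations with 100000 permutations and exact tests used Python 3.11.15, pandas 2.3.3, numpy 2.4.6 and scipy 1.17.1. The scripts were tested on simulated data.

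The 8 enzymes were named in every comparison, and of each other list the genes called or, with none called, the gene of lowest p, with examples where many were called. Some genes that this rule names are not reported here. Comparisons of knockdowns with Con were added after the data were seen. The enzymes and lists were chosen with earlier results of these data known. Libraries were not paired by replicate number in the main fits. Correlations of same-numbered deviations were not all over 0.1 in any comparison examined (0.102, 0.177 and -0.0525 in M5 against MNC). With 3 libraries a group these values cannot exclude a factor shared by replicates. Comparisons of knockdowns with Con were not among those examined. Alternatives were another pseudocount, other filters, centring, quantile normalization, removal of a GC trend, eBayes without trend, all 5 groups in 1 fit, the replicate block, a switch of control from MNC to Con, and omission of each library.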

Additional observations from a re-analysis of the deposited data

How the results depend on the processing

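The depth of the libraries is unknown, and 3 libraries a group limit what can be told apart, most of all for Idi1. The call of Sqle in M5 against MNC was kept with a pseudocount of 0.1, a filter of 5 FPKM, quantile normalization and all 5 groups in 1 fit. The number of enzymes called there was 0, against 1, with a filter of 0.1, no filter, centring, GC removal and eBayes without trend, and 0 to 0 with libraries left out. The share of all genes called there, 5.65%, ran from 0.0965% with the replicate block to 16.7% with all 5 groups in 1 fit. Against Con the share of all genes called ran, over the settings and libraries left out, from 0.0551% (without Con replicate 1) to 32.7% in MNC, from 3.95% (replicate block) to 36.3% in M5, from 8.67% (without Con replicate 1) to 46.6% in M1 and from 0% (without Con replicate 1, and replicate block) to 31.1% in M3.

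With the replicate block, the number of enzymes called was 0 in M5 against MNC (Sqle, adjusted p = 0.133), 1 in M1 against Con (Lss, 0.0422) and 0 in M3 against Con (Lss and Dhcr7, 0.0601 each), and the call in M5 against Con was kept.

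Elsewhere the number called became 2 in M3 against MNC with Con as the control (Lss and Dhcr7). It was 1 in M5 against M1 with a filter of 5 FPKM or quantile normalization (Idi1). In M5 against Con it was 2. There Idi1 was joined by Lss (lower) with quantile normalization, and by Sqle (higher) with GC removal or all 5 groups in 1 fit. In M1 against Con it was 1, but not the same gene. Fdft1 passed as higher with centring (0.24) and GC removal (0.21), and Lss as lower with all 5 groups in 1 fit (-0.39). In M3 against Con it was 1 with no filter (Lss). With libraries left out it ran from 0 to 1 in MNC against Con and M5 against M1, 1 to 3 in M5 against Con, and 0 to 2 in M1 and M3 against Con. A filter of 5 FPKM leaves out Lss.

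No difference that passed was reversed. Among the others, with Con as the control, Cyp51 became -0.018 in M5 and -0.12 in M3, Idi1 -0.25 in M1 and -0.67 in M3, Hmgcs1 -0.17 and Fdps 0.0064 in M1. Centring gave Cyp51 0.019 in M1 against MNC, Lss -0.024 in M5 against M1 and Fdps -0.060 in M5 against M3. Quantile normalization gave Fdft1 -0.021 in MNC against Con and 0.0026 in M1 against M3, and Lss -0.038 in M5 against M1 and -0.018 in M5 against M3. GC removal gave Lss -0.0011 in M5 against M1 and Fdps -0.0050 in M5 against M3.

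With libraries left out in turn, Lss ran from -0.14 to 0.050 in M5 against MNC. In M1 against MNC, Hmgcs1 ran from -0.10 to 0.13, Fdps from -0.092 to 0.030, Lss from -0.18 to 0.043, Cyp51 from -0.078 to 0.042 and Dhcr7 from -0.31 to 0.0052. In M3 against MNC, Idi1 ran from -0.31 to 0.37, Cyp51 from -0.057 to 0.077 and Hmgcs1 from -0.22 to 0.012. Fdps ran from -0.012 to 0.12 in MNC against Con. In M5 against M1, Fdps ran from -0.10 to 0.019, Dhcr7 from -0.25 to 0.13 and Lss from -0.077 to 0.17. In M5 against M3, Fdps ran from -0.020 to 0.090 and Lss from -0.018 to 0.17. In M1 against M3, Cyp51 ran from -0.091 to 0.043, Fdft1 from -0.061 to 0.050 and Lss from -0.061 to 0.16. The cause was not tested.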

Other observations

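Sc5d, which desaturates the sterol ring just before Dhcr7, passed as lower against Con in all 4 injected groups, comparisons that share the 3 Con libraries. It was at 9.04, 10.8 and 10.3 FPKM in Con and at 7.01, 6.49 and 5.73 in MNC. It was at 4.85, 7.15 and 5.46 in M1, 4.73, 6.08 and 5.28 in M3, and 7.36, 6.27 and 7.86 in M5, so every injected library was below every Con library. The log2 differences were -0.58 in MNC, -0.71 in M1, -0.80 in M3 and -0.44 in M5 (limma, adjusted p = 0.0212, 0.0141, 0.0254 and 0.0335). Lbr passed as lower in the same 4 comparisons, from -0.42 to -0.38. Pmvk was at 4.82 to 5.97 FPKM in Con and at 6.40 to 9.53 in the injected libraries. It passed as higher in MNC, M1 and M5, by 0.56, 0.40 and 0.60. Such differences from Con were common. Of all genes tested, 20.4% passed in MNC, 34.2% in M1, 22.1% in M3 and 21.7% in M5. Groups did not overlap for 46.5%, 53.6%, 49.3% and 42.2% of all genes, in the same order. Without Con replicate 1, Sc5d passed in M1 alone (adjusted p = 0.0469), and Lbr and Pmvk in none of these comparisons (0.0518 to 0.114 for Lbr, 0.0782 to 0.173 for Pmvk). With the replicate block, all 3 passed in M1 alone. Marker levels of cell types moved with these comparisons, as given for the elongating spermatid markers, and their part was not tested.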
